A study of Mus musculus with 6 samples.

Results

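Collagen genes were described in whole kidneys of mouse embryos at E12.5, the stage at which the ureteric bud has begun to branch. The members were all probe sets of the array whose annotation gives a single gene symbol of the form Col, a number, the letter a and a number. They comprised 82 of the 45101 probe sets and 42 of the 18193 genes with a single symbol. The wild-type group was 3 kidney samples of strain C57BL/6, and the group compared with it was 3 samples of the same strain labelled Ret Deficient, each on 1 array. Ret is the receptor tyrosine kinase of the ureteric bud for GDNF, a signal of the surrounding mesenchyme. The titles and genotype fields give the deficiency to the embryonic kidney and the source field gives it to the pregnant female. The allele, the litters and the number of embryos per sample were not stated in the labels. Every value is a deposited MAS5 signal, a fluorescence intensity on a linear scale, and all 6 arrays shared the same trimmed mean.

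Collagens are secreted or membrane-bound proteins whose chains wind around each other in a rope-like helix of glycine-rich repeats. Fibrillar collagens form the fibres of stroma and organ capsules. Type IV collagen forms the network of basement membranes, including the membrane that separates the ureteric bud from the mesenchyme around it. FACIT collagens sit on the surface of fibrils, cartilage collagens are best known from chondrocytes, and type VI collagen forms beaded filaments between cells.

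The arrays carried a kidney signal: the 7 kidney genes Six2, Eya1, Wt1, Sall1, Osr1, Hoxd11 and Foxd1 lay above background on all 6 arrays. Background was taken on each array as the brightest of 27 probe sets for Bacillus genes, which read 97.2 to 186.9. Ret read 10193 to 13315 in wild-type and 93.3, 479.8 and 334.1 in Ret-deficient replicates 1, 2 and 3. Libraries that stood apart were Ret-deficient replicate 1, whose summed signal of 11 ureteric epithelium markers was 7402, and Ret-deficient replicate 3, whose 8 macrophage markers summed to 60062 against 17511 to 32594. Wild-type replicate 1 had the highest ratio of 3 prime to 5 prime signal, 10.7 for beta-actin against 3.88 to 5.21 on the other arrays. The ureteric sums of Ret-deficient replicates 2 and 3 were 61634 and 49180, so that all 3 lay below the wild-type range of 70235 to 79513. Calb1, the brightest of these markers in wild-type, read 21363 to 29916 there and 13353 in Ret-deficient replicate 2. Of the 11 markers, 3 (Wnt9b, Epcam and Krt18) were highest of all 6 arrays in Ret-deficient replicate 2. Over the groups 10 of 10 tested ureteric markers had a negative difference (median -1.23), with 3 at an unadjusted p under 0.05 in limma, all lower. Over all tested probe sets 48.3% had a positive difference, and 2.74% were lower at that p. The labels call the replicates biological, and precision is set by there being 3 arrays a group.

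In wild-type kidneys 52 of the 82 collagen probe sets, belonging to 32 of the 42 genes, lay above background on all 3 arrays, and 17 probe sets lay above it on none. All 8 fibrillar genes had such a probe set, as did 6 of 8 basement membrane genes, 4 of 7 cartilage genes, 4 of 6 FACIT genes and 10 of 13 others. No wild-type array put the hypertrophic cartilage gene Col10a1, Col11a2, the hemidesmosome collagen gene Col17a1 or Col6a4 above background. Col4a3, Col4a4, Col6a5, Col9a2, Col19a1 and Col20a1 reached it on 1 or 2 of the 3 arrays. Signals of different probe sets depend on their probes, so they are not ranked against each other here.

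**Figure D1:**
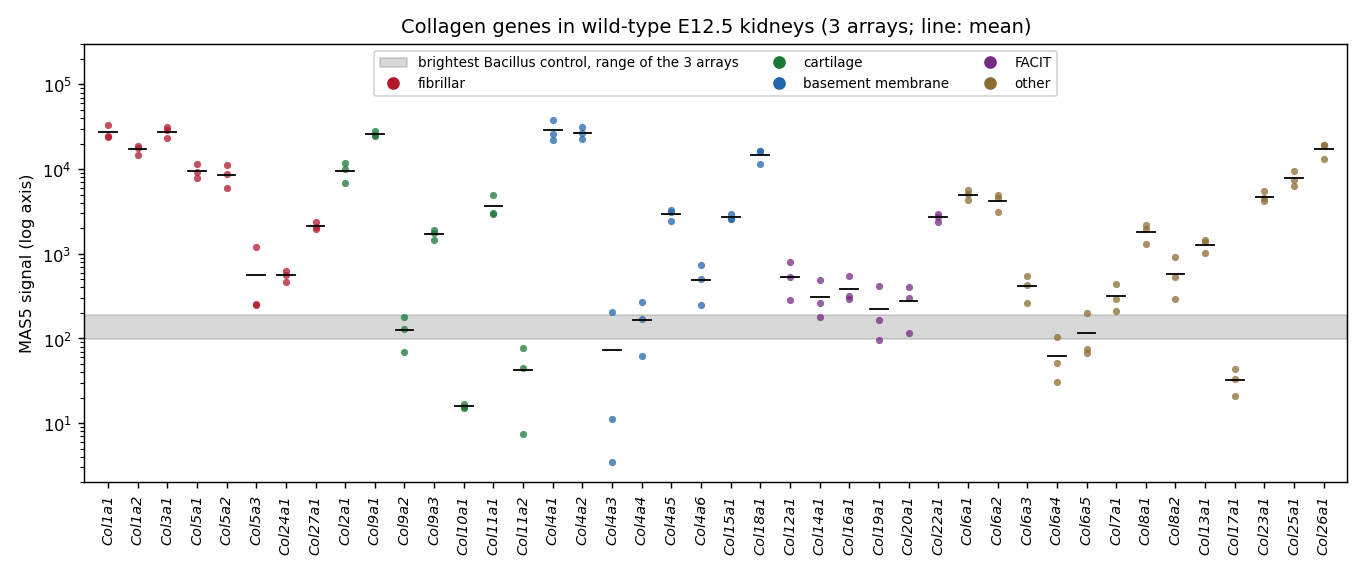
MAS5 signal (log axis) of 42 collagen genes on the 3 wild-type arrays, 1 probe set a gene, coloured by class, with the mean as a line and the brightest Bacillus control (97.2 to 186.9) as a grey band. Every fibrillar gene lies above the band on average, while the means of Col10a1, Col11a2, Col17a1, Col6a4 and Col4a3 lie below it.

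The comparison asks whether collagen transcripts differ when the kidney lacks Ret. Testing was limited to probe sets with a mean log2 signal at or above the array-wide median, which kept 50 collagen probe sets of 32 genes. The other 10 genes, Col4a3, Col4a4, Col6a4, Col6a5, Col7a1, Col9a2, Col10a1, Col11a2, Col17a1 and Col19a1, had no tested probe set. Differences are Ret-deficient minus wild-type on the scale log2(signal + 16), which understates the change of dim probe sets, and were fitted with limma, with p-values adjusted over all 22519 tested probe sets by Benjamini-Hochberg. No collagen probe set passed an adjusted p of 0.05, and the share of all tested probe sets that passed was 0%. The lowest adjusted p among collagens was 0.867. The collagen values below are therefore measurements without a call. An exact permutation test of a single probe set, 3 arrays against 3, cannot give a two-sided p below 0.1.

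Without adjustment, the collagens that differed were all higher in Ret-deficient kidneys. At an unadjusted p under 0.05 in limma there were 10 of 50 collagen probe sets (9 genes), or 20%, all of them higher. RNA came from whole organs, so a different number of cells that express a gene and a different amount of RNA per cell cannot be told apart. Over all tested probe sets the share was 5.37%, with 2.63% higher and 2.74% lower. Complete separation of the 3 Ret-deficient from the 3 wild-type arrays was seen at 10 collagen probe sets (8 genes), or 20%, again all higher. Over all tested probe sets that share was 10.7%, with 5.17% higher and 5.54% lower. The log2 difference was positive at 36 of 50 collagen probe sets, or 72%, against 48.3% of all tested, and its median was 0.28 against -0.01. That median was 0.12 without Ret-deficient replicate 1, 0.17 without wild-type replicate 2 and 0.46 without Ret-deficient replicate 2. The count of 10 was 3 without wild-type replicate 2 (6% against 3.77% of all tested), 5 without wild-type replicate 3 (10% against 4.69%), 4 without Ret-deficient replicate 1 (8% against 5.48%; 3 higher and 1 lower), 6 without Ret-deficient replicate 3 (12% against 9.39%) and 15 without Ret-deficient replicate 2 (29.4% against 4.84%). It was 5 of 32 with 1 probe set a gene, a rule under which no share of the whole array was computed. When every array was centred on its median, the median of all tested probe sets moved to 0.10 and that of collagens to 0.39, with 40 of 50 positive against 65.6% of all tested.

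The Ret-deficient arrays were unlike each other. Ret-deficient replicate 1 read above the highest wild-type array at 34 of 50 collagen probe sets, or 68%, replicate 3 at 27, or 54%, and replicate 2 at 17, or 34%. Over all tested probe sets these shares were 27.6%, 26.5% and 26.6%. Replicate 2 thus lay near the upper share of the whole array. Below the lowest wild-type array lay 1, 11 and 13 of the 50 collagen probe sets in replicates 1, 2 and 3. Over the 22519 tested probe sets these counts were 6492, 6712 and 5812. The median collagen probe set stood 0.47, 0.12 and 0.38 above the wild-type mean in replicates 1, 2 and 3, and wild-type replicates 1, 2 and 3 stood at 0.16, -0.19 and 0.07.

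**Figure D2:**
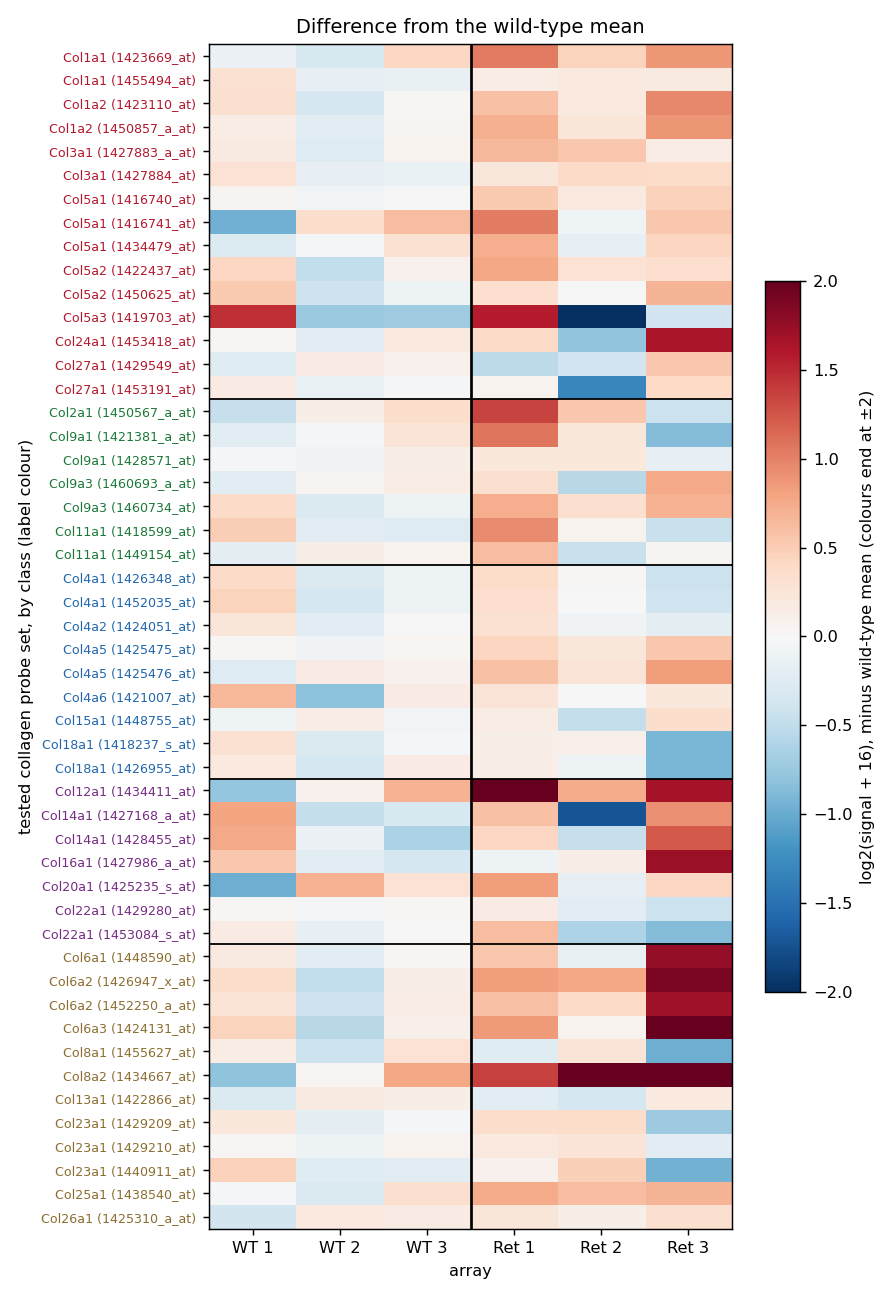
Each row is 1 of the 50 tested collagen probe sets, grouped by class (label colour), and each column an array; colour gives log2(signal + 16) minus the wild-type mean, from -2 in blue to 2 in red. Red predominates in Ret-deficient replicates 1 and 3 and is weaker in replicate 2, and the type VI rows are darkest in replicate 3.

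Fibrillar collagens showed a median log2 difference of 0.39 over 15 tested probe sets, 12 positive and 3 negative, with 3 at an unadjusted p under 0.05. Col1a2, which encodes the second chain of type I collagen, read 18899, 14766 and 17752 in wild-type and 27979, 20156 and 31426 in Ret-deficient replicates 1, 2 and 3. All Ret-deficient arrays lay above all wild-type arrays, and replicate 2 was the closest to them. The difference was 0.61 (SE 0.22, 95% interval 0.09 to 1.14, limma adjusted p = 0.914), or 1.53-fold. A further Col1a2 probe set, 1423110_at, had 0.58 with overlapping groups. A dim Col1a2 probe set, 1446326_at, was not tested and read 282.7 to 412.0 in wild-type and 129.7 to 419.8 in Ret-deficient kidneys; over the mean of all 3 probe sets, the dim one included, the Col1a2 difference was 0.20.

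Col1a1, the gene of the other type I chain, gave different values at its 2 probe sets. At 1455494_at the signal was 33460, 24227 and 24424 in wild-type and 29921, 31003 and 30494 in Ret-deficient kidneys. Wild-type replicate 1 was the brightest array there, and the difference was 0.17 (SE 0.18), or 0.32 without that array and 0.09 without wild-type replicate 2. At 1423669_at it was 14599, 12843 and 21051 against 32534, 21528 and 28847, a difference of 0.78 (SE 0.26, limma adjusted p = 0.867) without overlap. Wild-type replicate 1 is also the array with the highest 3 prime to 5 prime ratio, and the part of this in the gap between the probe sets was not tested.

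Col3a1, the type III chain found beside type I in soft stroma, read 31204, 23019 and 29039 in wild-type and 43179, 39829 and 30431 in Ret-deficient kidneys. Ret-deficient replicate 3 lay inside the wild-type range here, in contrast to Col1a2. The difference was 0.44 (SE 0.21, limma adjusted p = 0.928), and the other Col3a1 probe set had 0.32. Type V collagen, which nucleates type I fibrils, is encoded here by Col5a1, Col5a2 and Col5a3. Col5a1 read 7799, 9184 and 11541 against 15459, 8342 and 12706, with replicate 2 inside the wild-type range and a difference of 0.33 (SE 0.28), which was 0.13 without Ret-deficient replicate 1 and 0.58 without replicate 2. Its probe set 1416740_at read 7616 to 8258 against 9074 to 11322, with no overlap and a difference of 0.39 (SE 0.16). Col5a2 read 11113, 5914 and 8810 against 14276, 10161 and 10502, a difference of 0.46 (SE 0.28) with overlapping groups, which was 0.22 without wild-type replicate 2.

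The remaining fibrillar genes varied more between arrays than between groups. Col5a3 ranged from 249.6 to 1199 in wild-type and from 73.8 to 1300 in Ret-deficient kidneys, where replicate 2 was below background. Col24a1 had a difference of 0.41, with 1733 in Ret-deficient replicate 3 and 722.9 and 310.2 in replicates 1 and 2. Col27a1 had -0.28 and -0.12 at its 2 probe sets, both with overlapping groups.

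Upstream sequence is shown for the type I and type III chain genes Col1a2 and Col3a1, because they differ in base composition and in the motifs searched. The 250 bases before each transcript start come from RefSeq (GRCm38.p6) and run 5′ to 3′ on the gene's strand, Col1a2 at chr6:4505368-4505617 and Col3a1 at chr1:45311288-45311537, both on the plus strand. Capitals mark matches, on either strand, to the TATA box, searched as TATAAA, to the CCAAT box, searched by those letters, or to the GC box, searched as GGGCGG.
Col1a2: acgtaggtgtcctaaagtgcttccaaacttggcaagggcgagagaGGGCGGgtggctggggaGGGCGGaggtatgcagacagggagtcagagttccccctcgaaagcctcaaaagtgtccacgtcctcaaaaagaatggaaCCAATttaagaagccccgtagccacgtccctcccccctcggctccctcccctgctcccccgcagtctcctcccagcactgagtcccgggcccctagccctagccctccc
Col3a1: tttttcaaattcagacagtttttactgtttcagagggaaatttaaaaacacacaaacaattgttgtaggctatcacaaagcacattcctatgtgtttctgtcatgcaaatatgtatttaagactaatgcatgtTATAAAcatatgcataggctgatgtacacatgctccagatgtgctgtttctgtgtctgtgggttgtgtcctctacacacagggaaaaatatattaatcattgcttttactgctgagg
The Col1a2 window held 62% G and C, 1 CCAAT and 2 GC boxes, and no TATAAA. The Col3a1 window held 35.2% G and C and 1 TATAAA. RefSeq windows were found for 33 of the 42 collagen genes, 36 windows in all. Of these, 13.9% held TATAAA, 36.1% CCAAT and 58.3% GGGCGG, and the shares in all 32851 windows of that length were 12.4%, 33.8% and 32.7%. The median G and C content was 59% in the collagen windows and 52.4% in all windows of that length. Its part in the GC box share was not tested. A match describes letters and is not a shown binding site.

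Basement membrane collagens did not lean to either side as a class in the main fit. Their median was 0.01 over 9 tested probe sets, 5 positive and 4 negative. It ranged from -0.15 without wild-type replicate 2 to 0.18 without wild-type replicate 1. With arrays weighted by quality it was 0.25, against 0.29 for all collagens. Col4a1 and Col4a2 encode the chains of the common type IV network. Col4a1 read 38154, 21936 and 26132 in wild-type and 35332, 28181 and 21253 in Ret-deficient kidneys. Col4a2 read 31381, 22594 and 26422 against 32837, 25414 and 23497. In both genes wild-type replicate 1 and Ret-deficient replicate 1 were the brightest arrays, and the groups overlapped throughout. The differences were -0.02 (SE 0.28, 95% interval -0.68 to 0.65) and 0.02 (SE 0.21, 95% interval -0.47 to 0.52), and a further Col4a1 probe set had -0.01. The sign for Col4a1 turned under median centring, at 0.10. Ret-deficient replicate 1, the array with the lowest ureteric epithelium signal, had the highest Ret-deficient values of both genes. That array was also the highest of all 6 at 19 of the 50 tested collagen probe sets. A relation between the ureteric signal and these 2 genes was not tested.

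Col4a1 and Col4a2 lie next to each other on chromosome 8 on opposite strands and start within 22 bases of each other. The bases between their RefSeq starts, chr8:11312805-11312826 (GRCm38.p6), are shown because both transcripts include them, and the capitals mark a GC box; Col4a2 is read from the plus strand and Col4a1 from the minus strand.
Col4a2: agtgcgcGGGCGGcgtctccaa
Col4a1: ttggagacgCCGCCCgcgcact
Col4a3 and Col4a4 are likewise adjacent on chromosome 1, and Col4a5 and Col4a6 lie 1.3 kb apart on the X chromosome. Col4a3 and Col4a4 encode chains of the mature glomerular basement membrane. Col4a3 read 203.1, 3.5 and 11.1 in wild-type and 133.3, 34.8 and 173.2 in Ret-deficient kidneys, and Col4a4 read 267.9, 62.6 and 168.7 against 150.7, 84.9 and 100.3. Both genes were above background on some arrays of each group only, 3 of 6 in each case, so no fold is given.

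Col4a5 was the basement membrane gene whose groups did not overlap. It encodes a chain of the type IV networks of glomerulus and collecting duct. Its probe set 1425476_at read 2453, 3304 and 3128 in wild-type and 4437, 3529 and 5259 in Ret-deficient kidneys. Ret-deficient replicate 2 was the closest to the wild-type arrays. The difference was 0.56 (SE 0.22, 95% interval 0.05 to 1.08, limma adjusted p = 0.921), or 1.48-fold. The second probe set, 1425475_at, read 742.0 to 800.0 against 911.7 to 1141, a difference of 0.40 (SE 0.16), also without overlap. Its neighbour Col4a6 read 727.0, 247.5 and 505.9 against 543.4, 453.7 and 522.4, with a difference of 0.16 (SE 0.37) that was -0.07 over the mean of its probe sets.

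Col15a1 and Col18a1 encode collagens at the outer face of basement membranes, and the tail of the Col18a1 product is the source of endostatin. Col15a1 read 2544, 2979 and 2586 against 2985, 1941 and 3460, with a difference of 0.01 (SE 0.24). Col18a1 read 16539, 11394 and 16200 in wild-type and 15843, 13474 and 7728 in Ret-deficient replicates 1, 2 and 3. Only Ret-deficient replicate 3 lay below the wild-type range, and the difference was -0.30 (SE 0.31). The other Col18a1 probe set had -0.23, with 4995 in that replicate and 10191 and 10118 in the other Ret-deficient arrays. The summed signal of 8 endothelial markers was 15857 in Ret-deficient replicate 3 and 19296 to 36154 on the other arrays, with all 8 above background on every array. Single markers were divided in that replicate: Kdr, Tek, Tie1, Emcn and Cldn5 lay below the wild-type range, and Pecam1, Cdh5 and Esam inside it. Kdr, Tek and Emcn also lay below it in Ret-deficient replicate 2 (1162, 6324 and 3847), where Col18a1 was inside its wild-type range. In that replicate Tie1, Cldn5, Cdh5 and Esam lay inside the wild-type range and Pecam1 above it. The part of endothelial cells in the Col18a1 value was not tested.

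Cartilage collagens were positive at all 7 tested probe sets, with a median of 0.18, which was 0.02 without Ret-deficient replicate 1 and 0.50 without replicate 3. In Ret-deficient replicate 1 all 7 exceeded the highest wild-type array, against 2 each in replicates 2 and 3. Col2a1, the main fibrillar chain of cartilage, read 6807, 10145 and 11901 in wild-type and 23933, 13548 and 6954 in Ret-deficient replicates 1, 2 and 3. The groups overlapped because replicate 3 lay near the lowest wild-type array. The difference was 0.48 (SE 0.46), and it was 0.05 without replicate 1 and 0.94 without replicate 3. Col9a1, a FACIT chain of cartilage fibrils, read 25025, 24341 and 27818 against 29782, 29633 and 22983, a difference of 0.09 (SE 0.18), or 0.02 without Ret-deficient replicate 1 and 0.21 without replicate 3. Col11a1, which sets fibril diameter in cartilage, read 4984, 3025 and 2952 against 6810, 3714 and 2608, a difference of 0.19 (SE 0.39) that was -0.19 without Ret-deficient replicate 1 and 0.50 without replicate 3.

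Col9a3 had 0.18 at its brighter probe set and 0.58 (SE 0.23, limma adjusted p = 0.921) at 1460734_at, where wild-type arrays read 345.6 to 564.7 and Ret-deficient arrays 534.8 to 718.4. Col9a2, below the limit for testing, read 128.6, 69.2 and 180.8 in wild-type and 588.0, 187.9 and 532.4 in Ret-deficient kidneys, without overlap. Of the wild-type arrays 1 was above background there, and of the Ret-deficient arrays all 3 were. Col10a1 read 15.3, 16.8 and 15.4 against 39.9, 50.1 and 18.2, without overlap but below background on every array. Other cartilage genes were set beside these. Of 10 cartilage markers 4 (Acan, Matn3, Comp and Hapln1) were above background on all 6 arrays and Snorc on none, and none was at 0. Their summed signal was 14732 to 18370 in wild-type and 12736 to 14937 in Ret-deficient kidneys, with 13488 in replicate 1. Most of that sum was the link protein gene Hapln1, at 13286 to 16610 against 11684 to 13372. Comp, a cartilage matrix protein gene too dim to test, read 225.5 to 365.2 against 137.1 to 214.3, lower in Ret-deficient kidneys without overlap. No other of the 10 markers separated the groups. The aggrecan gene Acan read 204.0 to 352.6 in wild-type and 143.6 to 359.2 in Ret-deficient kidneys. Cnmd, also too dim to test, read 37.3, 100.2 and 18.2 in wild-type and 149.4, 147.0 and 57.0 in Ret-deficient kidneys. It was above background on 0 wild-type and 2 Ret-deficient arrays. Group means of Matn1, Ucma and Snorc were also higher in Ret-deficient kidneys, and those of Matn3, Matn4 and Chad lower.

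Among FACIT collagens Col12a1 had the clearest separation. Col12a1 encodes a collagen on the fibrils of dense connective tissue, and its probe set 1434411_at read 282.4, 525.6 and 805.7 in wild-type and 2277, 834.9 and 1601 in Ret-deficient replicates 1, 2 and 3. Replicate 2 lay just above the brightest wild-type array. The difference was 1.52 (SE 0.48, 95% interval 0.39 to 2.66, limma adjusted p = 0.867), or 2.87-fold. Its other 3 probe sets were too dim to test, and with them in the mean the difference was 0.67. Of these 1427391_a_at was above background on all Ret-deficient arrays (145.6 to 168.0) and on no wild-type array (22.1 to 178.6). The groups overlapped there: wild-type replicate 1 read 178.6, above every Ret-deficient array, on the array with the brightest control (186.9).

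The other FACIT genes overlapped between the groups. Col14a1 read 492.9, 263.6 and 177.8 against 385.5, 202.5 and 689.4 (0.39, SE 0.51), and its second tested probe set had -0.07. Col16a1 had 0.58 (SE 0.51), through 1257 in Ret-deficient replicate 3 against 346.9 and 408.7 in the other two. Col20a1 had 0.36 and the probe sets of Col22a1 -0.29 and -0.16. The class median was 0.36 over 7 probe sets, 4 positive and 3 negative, and ranged from -0.15 without wild-type replicate 3 to 0.75 without Ret-deficient replicate 2. Among untested members, Col19a1 was above background on 2 wild-type arrays and on no Ret-deficient array, with 94.8 to 411.5 against 13.7 to 110.5.

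Type VI collagen was highest in Ret-deficient replicate 3 at all 3 of its tested genes. Col6a1, Col6a2 and Col6a3 encode the chains of the same heterotrimer. Col6a1 read 5586, 4258 and 5112 in wild-type and 7208, 4462 and 16714 in Ret-deficient kidneys. Col6a2 read 4968, 3084 and 4588 against 6235, 5392 and 13458. Col6a3 read 543.5, 263.0 and 425.7 against 726.2, 414.9 and 2411. Only Col6a2 separated the groups, since replicate 2 lay inside the wild-type range for the other two. The differences were 0.71 (SE 0.46), 0.89 (SE 0.38, limma adjusted p = 0.921) and 1.16 (SE 0.62), and without Ret-deficient replicate 3 they were 0.19, 0.49 and 0.46. The Col6a1 difference was 1.15 without Ret-deficient replicate 2. A second Col6a2 probe set, 1426947_x_at, a type whose probes may also bind other transcripts, read 1573, 865.7 and 1346 against 2206, 2094 and 4568, a difference of 1.16 (SE 0.37) without overlap.

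The summed markers of stroma and of macrophages were also highest in Ret-deficient replicate 3. The 10 renal stroma markers summed to 91947 there, against 64980 in replicate 1 and 55027 in replicate 2, and wild-type kidneys had sums of 48943 to 54717. Of these 10, 9 were above background on all arrays and none was at 0. Single stroma markers were divided: 5 were highest in Ret-deficient replicate 3, Pdgfra, Pdgfrb, Meis1 and Postn in wild-type replicate 1, and Lum in Ret-deficient replicate 1. Over the groups 8 of 10 stroma markers had a positive difference, with a median of 0.67 and 4 at an unadjusted p under 0.05 in limma, all higher. Over all tested probe sets 48.3% had a positive difference, and 2.63% were higher at that p. The 8 macrophage markers summed to 17511 to 27616 in wild-type and 22401 to 60062 in Ret-deficient kidneys, 4 of the 8 were above background on all arrays, and all 8 were highest in Ret-deficient replicate 3. The macrophage gene Csf1r read 17208 in Ret-deficient replicate 3 and 3940 to 8846 elsewhere. Dcn, which encodes the stromal proteoglycan decorin, read 1142 there and 305.8 to 652.7 elsewhere, while the receptor gene Pdgfra read 19448 there and 17243 to 23743 elsewhere. The part of either cell type in the type VI values was not tested.

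**Figure D3:**
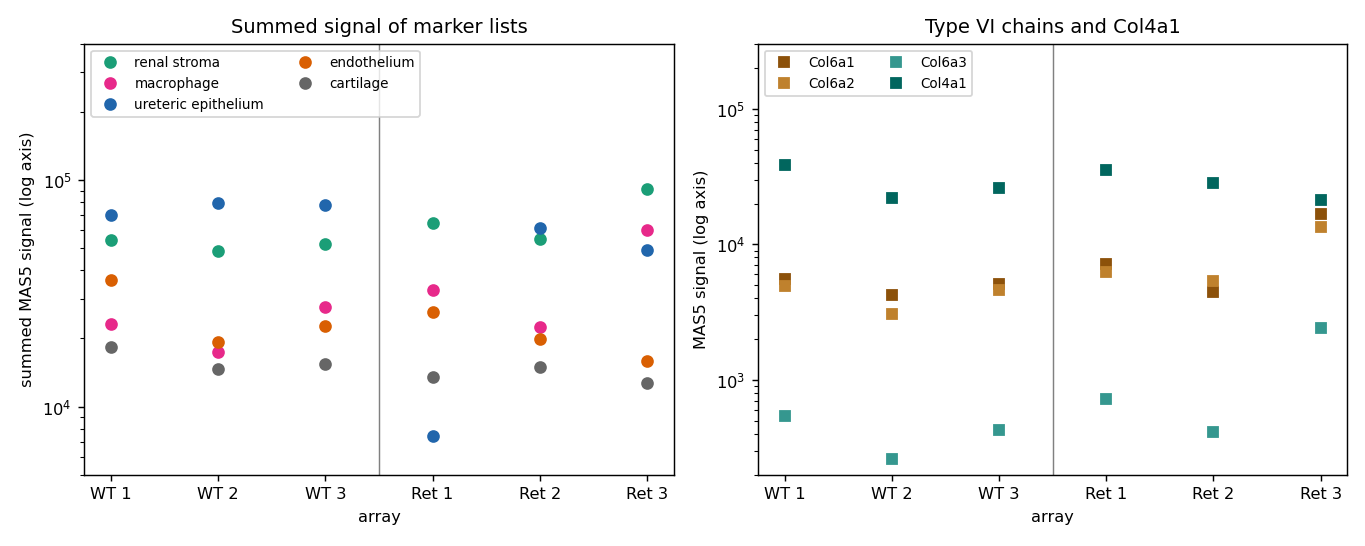
The left panel gives the summed MAS5 signal (log axis) of 5 marker lists on each of the 6 arrays, and the right panel the signal of Col6a1, Col6a2, Col6a3 and Col4a1. The type VI chains and the sums of the stroma and macrophage markers are highest in Ret-deficient replicate 3, and the ureteric epithelium sum is lowest in Ret-deficient replicate 1 (7402).

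Among the remaining collagens Col8a2 and Col25a1 separated the groups. Col8a2 encodes a short-chain, network-forming collagen known from the corneal endothelial membrane, and it read 293.1, 537.8 and 909.9 in wild-type and 1382, 2176 and 3367 in Ret-deficient replicates 1, 2 and 3. Every Ret-deficient array lay well above the highest wild-type array, and here replicate 1, not 2, was the closest. The difference was 2.01 (SE 0.47, 95% interval 0.89 to 3.13, unadjusted p = 0.00397, limma adjusted p = 0.867), or 4.03-fold. With 1 array left out it ranged from 1.61 to 2.40. Its partner chain gene Col8a1 had a difference of the other sign, at 1957, 1311 and 2160 against 1491, 2122 and 889.7, a difference of -0.32 (SE 0.35).
Col8a2 is shown upstream of its start (GRCm38.p6, chr4:126286544-126286793, plus strand) because it had the largest difference among the tested collagens; capitals mark motifs as above.
Col8a2: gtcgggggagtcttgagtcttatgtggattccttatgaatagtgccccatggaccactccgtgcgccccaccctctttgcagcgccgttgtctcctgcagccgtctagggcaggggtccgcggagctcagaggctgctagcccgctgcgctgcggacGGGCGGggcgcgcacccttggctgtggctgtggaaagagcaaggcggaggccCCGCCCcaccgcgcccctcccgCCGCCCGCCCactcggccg
This window held 70% G and C, 4 GC boxes, and neither TATAAA nor CCAAT. The Col8a1 window, at 60.8% G and C, also held 4 GC boxes.

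Col25a1 encodes a membrane-spanning collagen of neurons and muscle. It read 7452, 6234 and 9587 in wild-type and 12802, 11663 and 12304 in Ret-deficient kidneys. The Ret-deficient arrays lay close together and above every wild-type array. The difference was 0.68 (SE 0.20, 95% interval 0.20 to 1.16, limma adjusted p = 0.867), or 1.60-fold. A dim Col25a1 probe set lay above background on 1 array of each group, and with it in the mean the difference was 0.21. Of the other membrane-spanning genes tested, groups overlapped, with -0.13 for Col13a1 and -0.12 to 0.08 over the 3 probe sets of Col23a1. Col26a1, a secreted collagen-like protein gene, read 13200 to 19409 against 18477 to 21272 (0.23, SE 0.20). The membrane-spanning Col17a1 product sits in hemidesmosomes, and its gene read 33.3, 43.1 and 20.8 against 105.4, 57.1 and 85.3, without overlap but below background on all 6 arrays, so it was not tested and has no fold. The epidermal anchoring fibril gene Col7a1 was not tested and read 209.6 to 439.2 against 78.3 to 278.9.

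**Figure D4:**
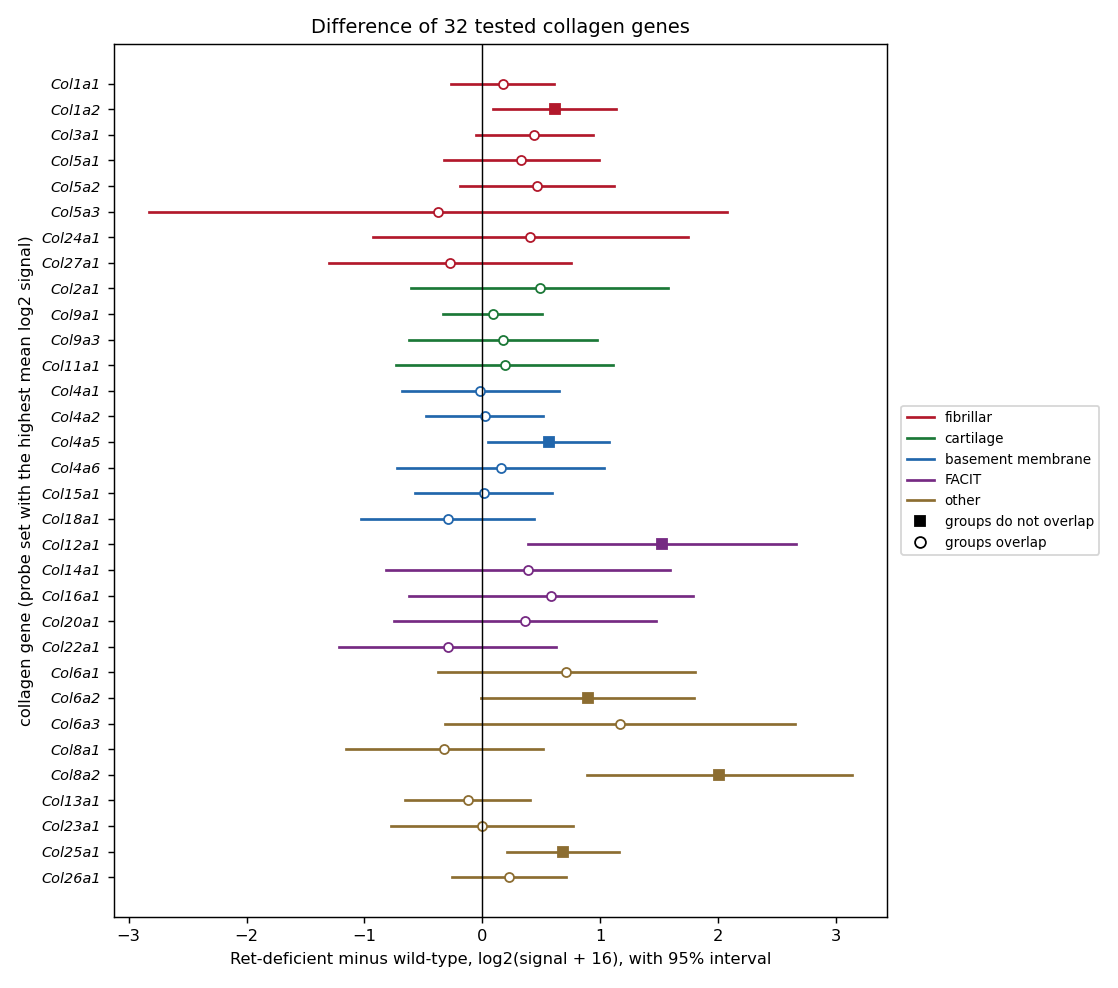
Log2 difference, Ret-deficient minus wild-type, with the 95% interval of the limma fit, unadjusted, for 32 tested collagen genes by class, 1 probe set a gene. Filled squares (Col1a2, Col4a5, Col6a2, Col8a2, Col12a1 and Col25a1) are genes whose groups do not overlap, and the intervals of Col6a2 and of every gene without a filled square include 0.

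**Figure D5:**
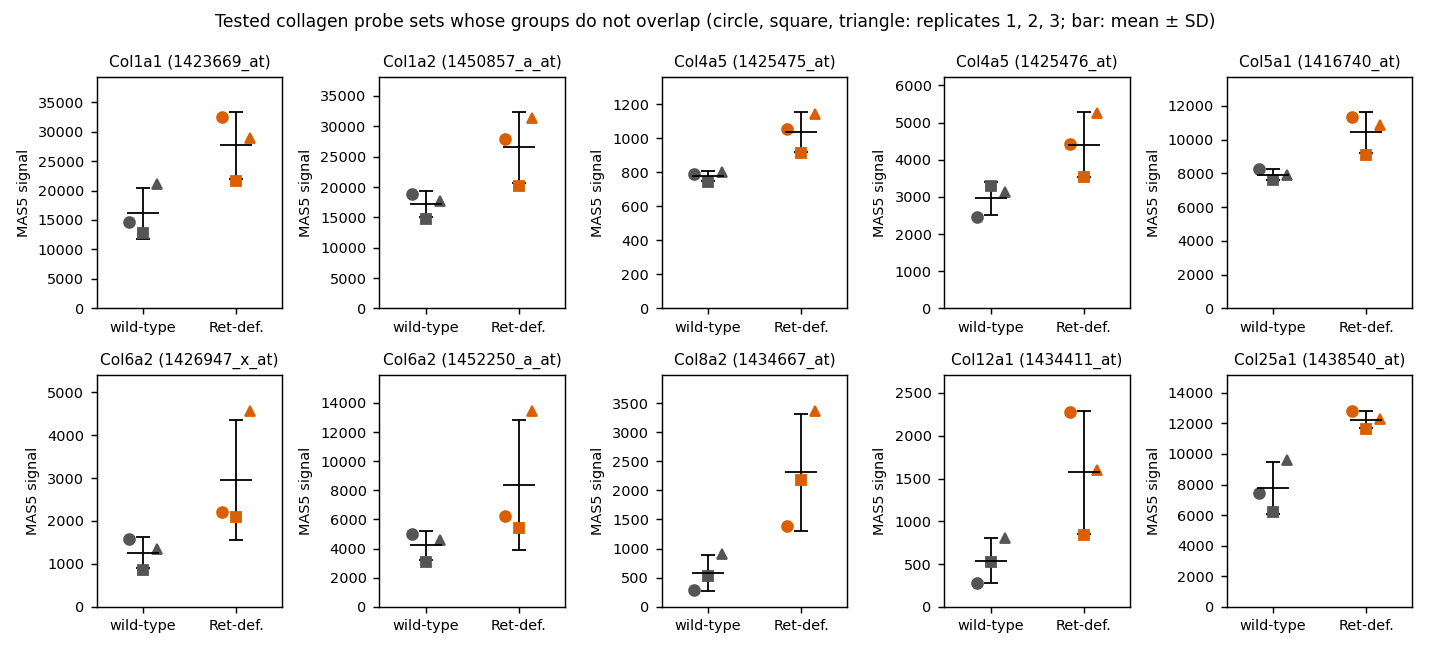
MAS5 signal (linear axes from 0) on each array for the 10 tested collagen probe sets whose groups do not overlap, with mean ± SD (n = 3); circles, squares and triangles are replicates 1, 2 and 3. Ret-deficient replicate 2 is the lowest Ret-deficient array in every panel except that of Col8a2.

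Several tested probe sets were available for 16 genes. In 14 of them the probe sets gave differences of the same sign, and in 2, Col14a1 and Col23a1, they did not. The widest gap between probe sets of a gene was 0.61, at Col1a1.

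Genes that make and bind collagen were taken as 3 further lists, and 0 members of any passed an adjusted p of 0.05 in limma. Over all tested probe sets 48.3% had a positive difference, 5.37% an unadjusted p under 0.05 and 10.7% groups that did not overlap. Of 18 tested genes of collagen modification and folding, 15 had a positive difference and 3 a negative one, with a median of 0.25, and 3 had an unadjusted p under 0.05, all higher. These were P4ha3, a proline hydroxylase subunit gene (464.6, 387.9 and 493.5 against 753.3, 759.9 and 710.1, a difference of 0.71, SE 0.16), P3h4, a partner of lysyl hydroxylase (0.64, SE 0.17), and the lysyl hydroxylase gene Plod1 (0.53, SE 0.22). In all 3 the groups did not overlap. Of 3 tested genes of processing outside the cell, Bmp1, a protease that cleaves procollagen tails, read 1768, 2163 and 1686 against 2875, 2344 and 3009 (0.55, SE 0.19), and Pcolce and Adamts3 had 0.06 and -0.14. All 7 tested receptor genes had a positive difference, with a median of 0.14 and 0 at an unadjusted p under 0.05. Among the receptors Ddr2, a collagen-binding kinase gene, had 0.21, Adgrg1 0.15 and the collagen uptake receptor gene Mrc2 0.20.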

How the data were processed

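RNA from whole E12.5 kidneys was hybridised to Affymetrix Mouse Genome arrays, 3 wild-type and 3 Ret-deficient samples. The deposited values are signal intensities from MAS5, per the submitters' processing notes; no version is stated in the sources used here. The design text names an amplification kit and the labels' protocol a standard Affymetrix labelling. The mean of each array after trimming 2 percent at each end was 2500, and array medians differed by 0.42 on the log2 scale, so arrays were not centred, which was set to begin at 0.5.

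After removal of 64 control probe sets, those with a mean of log2(value + 16) at or above the median (22519) were tested and 22518 were not. Differences and two-sided p-values came from limma 3.58.1 in R 4.3.3, using lmFit and eBayes without covariates, with Benjamini-Hochberg adjustment; figures were drawn with matplotlib 3.10.9. The test was checked on simulated data. Symbols come from the platform annotation, and those of other genes were updated by gene ID. A gene is represented by its probe set with the highest mean log2 signal. Promoter windows come from RefSeq (GRCm38.p6).

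The members and lists were chosen with earlier results of these data known. Values in every array are given for the representative probe set of tested collagen genes with an unadjusted p under 0.1 or groups that do not overlap, and for the main chains of each class; up to 3 genes are named for each of the other lists. The titles give a replicate number and no pairing, so the main fit treated the samples as unpaired. Marker lists not used above were ureter mesenchyme and smooth muscle (6 tested, median log2 difference -0.31), tendon and body wall (2, 0.55), skeletal muscle (2, 0.36), neural crest and glia (1, -1.47), gonad (1, -0.38), adrenal cortex (1, -0.38) and erythroid (3, 0.03). None of their members passed the test, but neither did any probe set of the array, so this does not show them unchanged. Sox10 (-1.47) and the tendon gene Scx (0.89) had an unadjusted p under 0.05 in limma, as did 5.37% of all tested probe sets. Among untested members Myod1 was higher and Cyp11a1 lower in Ret-deficient kidneys, without overlap. Alternatives were the pseudocount, brightness filter, normalization, variance trend, array weights, replicate block, probe set rule, thresholds, background rule and each array left out.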

Additional observations from a re-analysis of the deposited data

How the results depend on the processing

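No alternative brought a collagen probe set to an adjusted p under 0.05 or under 0.1 in limma; over the alternatives the lowest adjusted p of a gene named with its values was 0.313, for Col8a2 with array quality weights. The count at an unadjusted p under 0.05 was 10; it ranged from 3 to 15 with 1 array left out, and was 5 with 1 probe set a gene and 3 with a minimum difference of 1 on the log2 scale. The count without overlap was 10, and 10 to 19 with 1 array left out, where fewer arrays alone raise the share (16.2% to 28.5% of all tested). Without wild-type replicates 1, 2 and 3 the collagen shares were 36%, 22% and 20%, against 21.6%, 16.2% and 19.9% of all tested. Without Ret-deficient replicates 1, 2 and 3 they were 26%, 37.3% and 32%, against 20.4%, 18.5% and 28.5%. The excess of collagens was thus absent without wild-type replicate 3. The median collagen difference of 0.28 stayed positive, from 0.12 without Ret-deficient replicate 1 to 0.46 without Ret-deficient replicate 2. Without the brightness filter it was 0.16, and the count at an unadjusted p under 0.05 in limma was 7 of 82 collagen probe sets. Shares over the whole array were not computed without the filter, with 1 probe set a gene or with the minimum difference. Those counts therefore have no background to be read against. Without the filter the median of the class of other collagens was -0.0059, against 0.45 with it. Among the brightest 30 percent of probe sets the FACIT median was -0.29, against 0.36. The count above background in wild-type kidneys, 52, was 47 with the control doubled and 65 with the median control. With the replicate block (same-numbered samples correlated at 0.03, -0.04 and -0.12) the counts were 10 at an unadjusted p under 0.05 and 0 after adjustment. Signs of single genes turned in some alternatives. Col15a1 was -0.00044 with quantile normalization and -0.15 with array quality weights. Col18a1 was 0.0055 and Col4a1 0.29 with array quality weights. Col4a1 was 0.10 with median centring, and Col4a6 was -0.070 over the mean of its probe sets. With 1 array left out the ranges were -0.029 to 0.82 for Col14a1, -0.16 to 0.25 for Col15a1, -0.51 to 0.010 for Col18a1, -0.19 to 0.21 for Col4a1, -0.12 to 0.14 for Col4a2, -0.26 to 0.49 for Col4a6 and -0.19 to 0.50 for Col11a1; the cause was not tested. Probe sets near background have only approximate differences.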
